A study of Mus musculus with 4 samples.

Results

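The microRNA pathway genes described here are 10 genes whose proteins make microRNAs or carry out their silencing: Drosha, Dgcr8 and Dicer1, which process the precursors, the Argonaute genes Ago1, Ago2, Ago3 and Ago4, and the GW182 genes Tnrc6a, Tnrc6b and Tnrc6c. They were chosen by name, out of 55450 genes of the GENCODE M21 annotation (21951 of them protein-coding), and the m6A peaks over their exons were collected from mouse brain (mm10). A microRNA is cut from a hairpin in a nuclear transcript by Drosha and its partner Dgcr8, and trimmed by Dicer1 in the cytoplasm. An Argonaute protein then holds the mature strand and pairs its seed with a target mRNA. GW182 proteins bind the Argonaute and recruit deadenylases, after which the target is decapped and degraded. N6-methyladenosine (m6A) is a methyl mark on adenosines of mRNA, found mostly in the consensus GGAC, often GGACT, in long internal exons and around stop codons.

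The 4 samples are 2 libraries of RNA bound by an m6A antibody (IP) and 2 of the unselected RNA (input), all from whole brain of C57BL/6J mice aged 4 weeks. By the series design, all came from Prrc2a flox/flox mice, in which the Prrc2a gene is flanked by recombination sites. No Cre driver is named in the labels, and no second genotype or treatment enters, so every value below is a description of 1 condition in 2 replicates, and nothing was tested between groups. Whether brains were pooled and how many mice stand behind a sample is not given in the sources used here. Whole brain mixes neurons, glia and vessel cells, and fewer cells with a marked transcript cannot be told apart from fewer marks per transcript.

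A peak list was used for each IP replicate, 38533 peaks in replicate 1 and 30134 in replicate 2, each with a fold enrichment of IP over that replicate's own input. Read numbers and gene expression were not used here, so the depth behind a peak is unknown, and a gene without a peak may be unmarked, weakly marked or little expressed. A stretch of bases covered by a peak in both replicates is called a shared interval below. The peak lists carry no strand, so peaks over overlapping genes cannot be assigned to either.

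Of the 10 genes, 9 carried at least 1 shared interval over their exons, where 45.6% of all protein-coding genes did. The members have long transcripts, and among protein-coding genes of their range of exon length (5935 to 23677 nt) the share was 71.2%. Replicate 1 had 52 peaks over exons of the 10 genes, and replicate 2 had 48. At least 1 peak was present in 9 members in replicate 1 (54.4% of protein-coding genes) and in all 10 in replicate 2 (49.5%). The peaks gave 32 shared intervals. Inside the introns of the members, clear of any exon, lay 1 peak, in Tnrc6a in replicate 1, at 3.20.

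The genes fell far apart in number. Tnrc6c had 9 peaks in replicate 1, 12 in replicate 2 and 7 shared intervals, the most of the 10. Tnrc6a followed with 8, 8 and 6, and Drosha with 6, 8 and 6. Tnrc6b had 9, 6 and 4. Dicer1 was the gene whose replicates differed most, with 10 peaks in replicate 1 but 4 in replicate 2, of which 3 were shared. Dgcr8 had 4, 5 and 2. No Argonaute had more shared intervals than Dgcr8. Ago4 had 2 peaks in each replicate, both shared, Ago1 had 1 in each, shared, and Ago2 had 3 and 1, with 1 shared. Ago3 had no peak in replicate 1 and 1 in replicate 2, and hence was the gene without a shared interval.

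**Figure D1:**
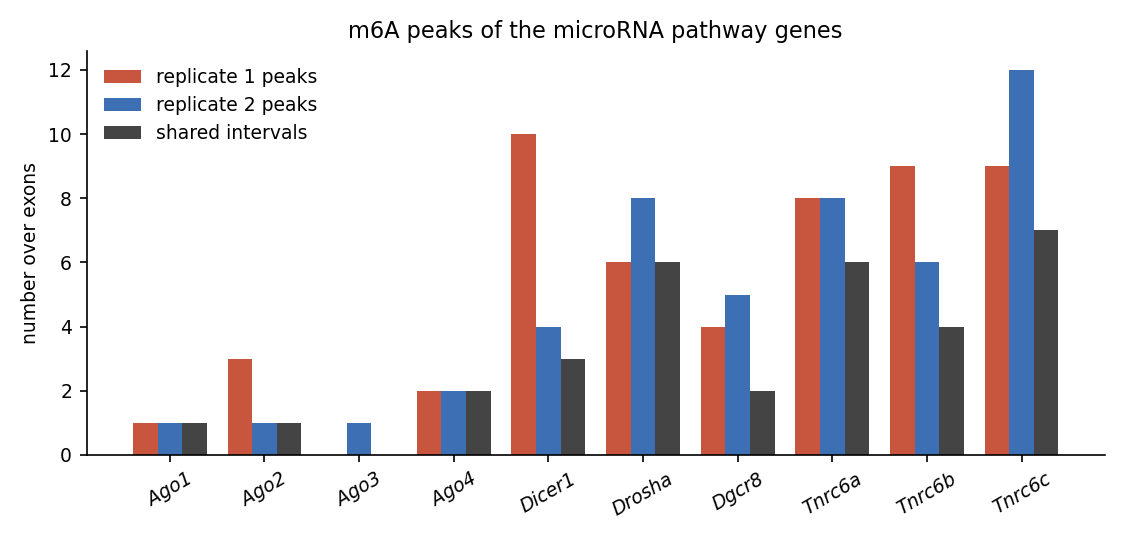
Number of m6A peaks over the exons of each microRNA pathway gene in replicate 1 and replicate 2, and number of shared intervals (bases covered in both), with genes along the horizontal axis. The 4 Argonautes have 0 to 2 shared intervals, and Tnrc6c has 7.

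Per kb of exon (all annotated exons of a gene joined), the order changed. Drosha, whose exons add up to 5935 nt, carried 1.01 shared intervals per kb. Tnrc6c (0.545 per kb) and Tnrc6a (0.472 per kb) came next. Ago4, Dgcr8, Dicer1 and Tnrc6b lay between 0.288 and 0.169 per kb, a range in which a single interval more or less would reorder them. Ago1 (0.123) and Ago2 (0.0713) were lowest among the genes with an interval. The median of the 10 members was 0.219 per kb, beside 0.160 for protein-coding genes of like exon length and 0.400 for all protein-coding genes that had any shared interval.

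Agreement of the replicates was somewhat below that of all exonic peaks. Of the replicate 1 peaks over the members, 61.5% overlapped a replicate 2 peak, where 67.8% of all exonic peaks did. In the other direction the shares were 66.7% and 76.8%. The median fold enrichment of member peaks was 2.97 in replicate 1 (quartiles 2.17 and 4.11), beside 2.71 for all exonic peaks of protein-coding genes. In replicate 2 it was 1.98 (quartiles 1.70 and 2.52), beside 2.17. Member peaks thus lay above the median of all peaks in one replicate and below it in the other. Among the 32 shared intervals, 30 (93.75%) had the higher value in replicate 1, a direction that 77.8% of shared intervals over all protein-coding genes also had. Values of at least 2 in both replicates were reached by 17 of the 32 intervals (53.1%, and 61.7% over all genes). Values of at least 4 in both were reached by 1, in Tnrc6b (3.125%, and 3.18% over all genes).

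**Figure D2:**
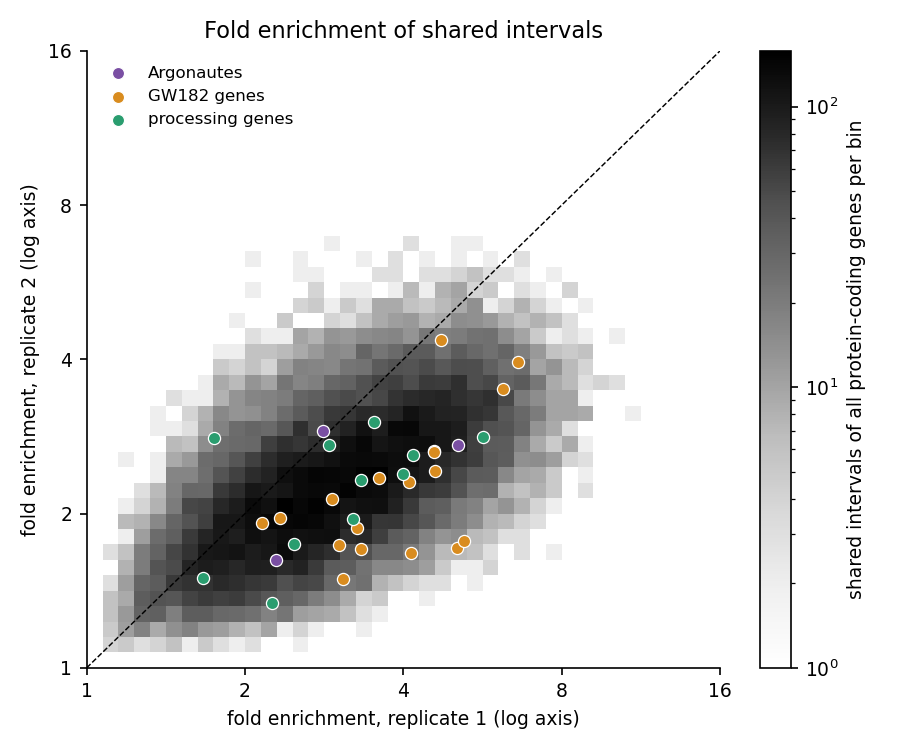
Fold enrichment of IP over input in replicate 1 (horizontal, log axis) and replicate 2 (vertical, log axis) of the 32 shared intervals of the members, coloured by family, over the shared intervals of all protein-coding genes (grey bins, darker for more intervals). The dashed line marks equal values, and 30 of the 32 points lie below it.

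The first group are the processing genes. Drosha encodes the nuclear RNase III enzyme that makes the first cut. Its gene (chr15:12824815-12935291, plus strand) has 35 exons in the representative transcript, most of them short, with a median internal exon of 100 nt. Its strongest shared interval, chr15:12934889-12935269, was enriched 5.68-fold in replicate 1 and 2.82-fold in replicate 2 and covered 93.0% of the 299-nt last exon. The midpoint lay 43 nt before the end of the stop codon. This interval reached both the end of the coding sequence (CDS) and 87.5% of the 168-nt 3′ UTR, the shortest 3′ UTR of the 10 genes, and it held no GGAC on the transcript strand.

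A second Drosha interval lay over exon 4, the longest internal exon of the gene (834 nt), and covered 88.0% of it, at 2.89 in replicate 1 and 2.73 in replicate 2. The replicates were close here. Another, over the first exon in the 5′ UTR, ran against the usual order, with 1.75 in replicate 1 and 2.81 in replicate 2. The other 3 intervals lay over short coding exons (exon 5, exons 6 and 7, and exon 34), with values between 1.34 and 3.21 over both replicates. A predicted microRNA gene, Gm47288, overlaps the interval over exon 7 of Drosha.

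Dgcr8 encodes the double-stranded RNA-binding partner of Drosha (chr16:18253948-18289246, minus strand). Its strong interval, chr16:18283697-18284662, was enriched 4.18-fold in replicate 1 and 2.60-fold in replicate 2 and covered 96.6% of exon 2, a 1000-nt exon that holds the end of the 5′ UTR, the start codon and 31.0% of the CDS. It is the longest internal exon of the members outside the GW182 genes. This exon also contains 2 microRNA hairpins on the same strand, both wholly inside the shared interval. The hairpin of Mir1306 (chr16:18284239-18284317) starts at base 100 of the coding sequence. It is printed in RNA letters, with both mature arms in capitals, because a substrate of the Drosha and Dgcr8 complex lies here within the marked part of the Dgcr8 mRNA. The hairpin of miR-3618, annotated as Gm24572 (chr16:18284550-18284637), ends 134 nt before the start codon. The mature strands follow with the seed, bases 2 to 8, in capitals. All are RefSeq sequences on GRCm38.p6.
Mir1306 hairpin: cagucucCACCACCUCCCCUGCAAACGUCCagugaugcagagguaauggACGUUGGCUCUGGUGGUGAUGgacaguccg
miR-1306-5p: cACCACCUccccugcaaacgucc
miR-1306-3p: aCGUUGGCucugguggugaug
miR-3618-5p: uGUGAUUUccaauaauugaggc
miR-3618-3p: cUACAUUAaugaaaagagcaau

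The 4 mature strands have 4 different seeds. The Mir1306 hairpin itself holds 2 GGAC, and the miR-3618 hairpin holds none. The shared interval is 966 nt long and the hairpins 79 and 88 nt, so most of the interval lies outside them. Over the hairpins themselves, reads of the mRNA and reads of the hairpins cannot be told apart in a peak list. A single GGACT was found in the interval, in the 5′ UTR 81 nt before the start codon (chr16:18284483-18284511, minus strand). It is shown with 12 nt on either side.
Dgcr8 5′ UTR site: ccgggtctcgacGGACTtgtgcatgttag

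The other shared interval of Dgcr8, in the 3′ UTR (midpoint 152 nt after the stop codon), was lower, at 2.47 in replicate 1 and 1.74 in replicate 2. Replicate 1 alone had 2 more peaks and replicate 2 alone had 3 more, none above 2.38. The predicted gene Gm49776 overlaps the replicate 1 peaks over the last exons of Dgcr8, but not this shared interval.

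Dicer1 encodes the RNase III enzyme that releases the microRNA duplex (chr12:104687742-104751952, minus strand). It has 3 internal exons of at least 400 nt, of which exons 21 and 23 carried a shared interval. The interval over exon 21 (781 nt) was enriched 3.99-fold in replicate 1 and 2.39-fold in replicate 2 and covered 74.9% of the exon. Over exon 23 (871 nt) the values were 3.33 and 2.33, with 88.5% covered. Exon 8 (473 nt) was the exception, with a peak of 2.17 in replicate 1 and none in replicate 2. The interval with the highest lower value of the gene, chr12:104691404-104691706, lay across the stop codon, at 3.52 in replicate 1 and 3.02 in replicate 2, and held a GGACT whose adenosine is 10 nt after the stop codon (chr12:104691569-104691597, minus strand). A stretch of exon 21 dense in the motif is shown with each GGAC in capitals (chr12:104702566-104702715, minus strand, all CDS), since it holds all 4 GGAC of the exon within 150 nt, 3 of which are GGACT.
Dicer1 stop codon site: gctgaagcttccGGACTcacaggcggcaa
Dicer1 exon 21: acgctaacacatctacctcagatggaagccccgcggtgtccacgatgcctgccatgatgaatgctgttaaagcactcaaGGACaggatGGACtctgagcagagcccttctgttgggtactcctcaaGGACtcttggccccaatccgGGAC

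The 7 Dicer1 peaks seen in replicate 1 alone had fold enrichments between 1.34 and 2.83, all below the 3 shared ones. The single peak seen in replicate 2 alone, at 2.33, lay over the first exon.

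The Argonautes, the proteins that hold the microRNA, differed from the other members in where their peaks lay. All 6 Argonaute peaks of replicate 1 and all 5 of replicate 2 were in the last exon with the midpoint in the 3′ UTR. None of their 67 internal exons was touched by a peak of either replicate. All 67 are under 400 nt. Of internal exons that short, 5.81% had a shared interval over all protein-coding genes with a peak. A peak of a single replicate lay over 10032 of those 115599 exons. In the processing genes 4 of 65 such exons had a shared interval, and in the GW182 genes 8 of 62. Ago2, the Argonaute able to cut its target (chr15:73095844-73184935, minus strand), had 1 shared interval at chr15:73105447-73105910, with 4.57 in replicate 1 and 2.65 in replicate 2, its midpoint 1230 nt after the stop codon in a 3′ UTR of 11064 nt. The interval held 3 GGACT. Replicate 1 had 2 further Ago2 peaks, one across the stop codon at 3.06 and one farther down at 2.12, that replicate 2 did not have.

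Ago4 had the most enriched Argonaute interval in replicate 1 (chr4:126490498-126491263, minus strand), at 5.08 in replicate 1 and 2.72 in replicate 2, with the midpoint 2343 nt after the stop codon. Its other interval, chr4:126493040-126493276, had nearly the same value in both, 2.82 and 2.90, and lay 65 nt after the stop codon. Together they covered 25.8% of the Ago4 3′ UTR, where the other Argonautes had 7.46% (Ago1), 4.19% (Ago2) and 0 (Ago3). Neither Ago4 interval held GGACT, and the first held 1 GGAC. Ago1 had an interval just after the stop codon (chr4:126439167-126439501, minus strand, midpoint at 169 nt), at 2.29 and 1.63. Ago3 lies next to Ago1 on chromosome 4, in a cluster with Ago4, and has the longest 3′ UTR of the 10 genes (12742 nt). Its one peak, of 1.93 in replicate 2, lay 12140 nt after the stop codon. The strongest interval of Ago2 and that of Ago1 are represented by the site nearest the middle (chr15:73105597-73105625 and chr4:126439329-126439356, minus strand).
Ago2 3′ UTR site: tctgccagcatgGGACTggcaggtaggaa
Ago1 3′ UTR site: agggtgggaagaGGACcagcaagacaga

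**Figure D3:**
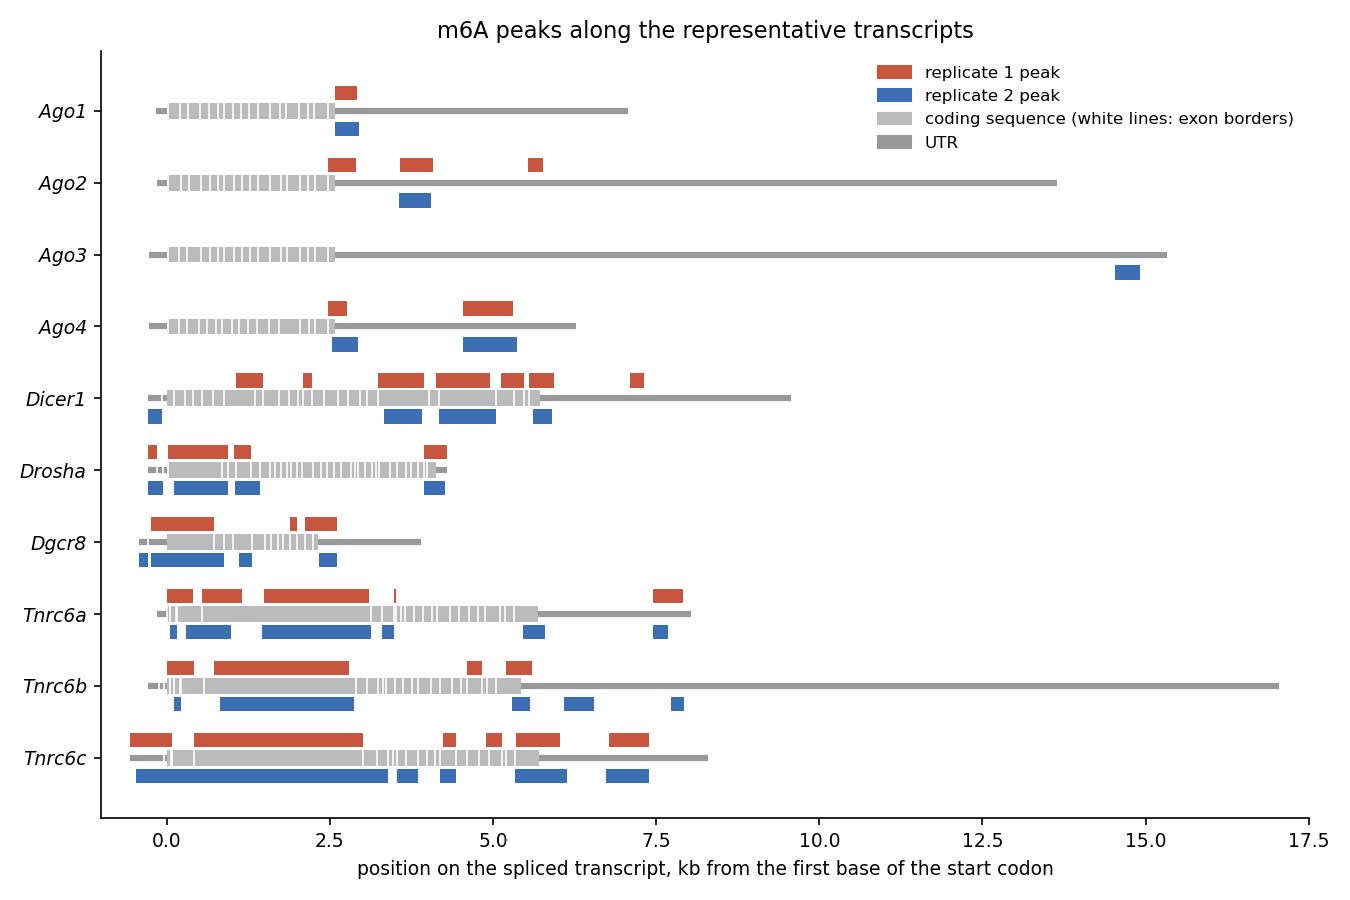
Spliced representative transcripts of the 10 genes, in kb counted from where the start codon begins, with coding sequence as thick grey bars (white lines are exon borders), UTRs as thin bars, replicate 1 peaks above and replicate 2 peaks below (peaks on neighbouring exons touch once introns are removed). Argonaute peaks lie at or beyond the end of the coding sequence, and peaks of Tnrc6a, Tnrc6b and Tnrc6c cover the long undivided exon in the first part of theirs.

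The CDS of the Argonautes held GGAC 5.52 times per kb, beside 5.41 in the GW182 genes and 4.60 in the processing genes. GGACT was less frequent there, at 0.678 per kb, beside 1.25 and 1.07. Of the 57 GGAC in Argonaute CDS, 0 lay in a shared interval and 2 in a peak of a single replicate. Of the 7 GGACT there, none lay in any peak. All 7 are in exons under 400 nt. In exons of that length, 0 of the 23 coding GGACT of all members lay in a shared interval. Over all genes with a shared interval the share was 7.57%. In the GW182 genes 47 of 91 coding GGAC lay in a shared interval, and in the processing genes 14 of 56. Shared intervals covered 0.523% of the Argonaute CDS, 46.0% of the GW182 CDS and 28.2% of the processing CDS. In the 3′ UTR the families were closer, at 5.47%, 7.70% and 10.7%.

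Some coding GGACT of the Argonautes with no peak over them are shown, among them a stretch that recurs between paralogs. Ago1 (exon 12, chr4:126448799-126448827) and Ago3 (exon 12, chr4:126363678-126363706) share the same 29-nt stretch around a GGACT in a 185-nt exon, and neither gene had a peak there in either replicate. The sites of Ago2 lie in exon 2 (chr15:73146482-73146510) and exon 16 (chr15:73111752-73111780). All are on the minus strand.
Ago1 exon 12: aacacctactcaGGACTgcagctcattat
Ago3 exon 12: aacacctactcaGGACTgcagctcattat
Ago2 exon 2: tccacctcggccGGACTtcggcaccaccg
Ago2 exon 16: caagctggagaaGGACTatcagccaggaa

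**Figure D4:**
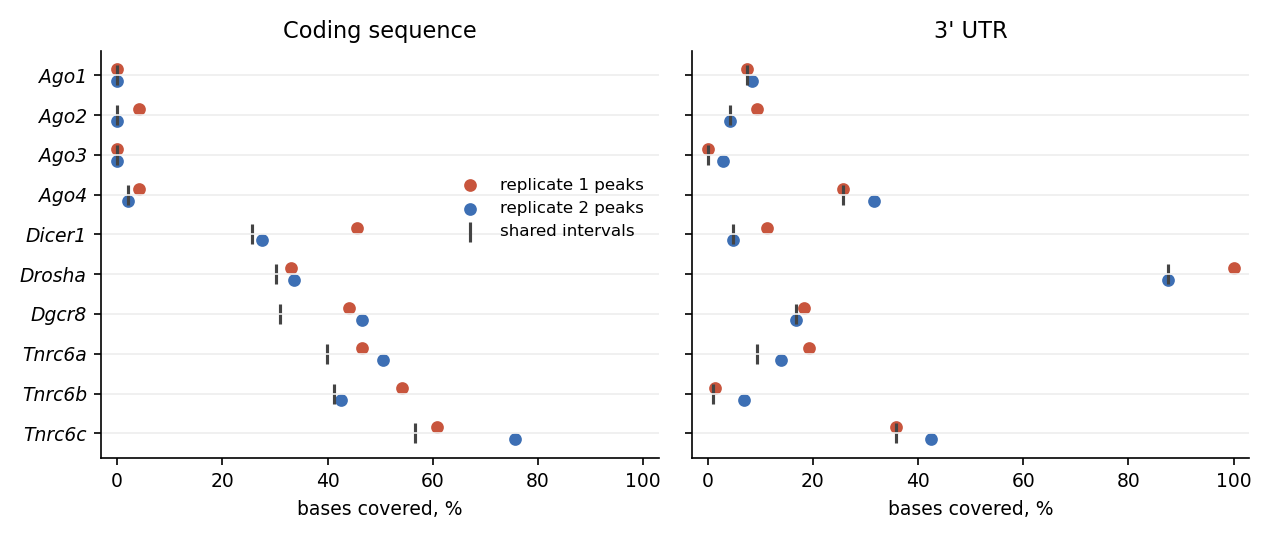
Percent of coding sequence (left) and of 3′ UTR (right) covered by replicate 1 peaks, replicate 2 peaks and shared intervals in each gene. Shared intervals cover at most 2.09% of the coding sequence of an Argonaute and at least 25.7% of that of any other member.

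The GW182 proteins bind Argonaute through glycine-tryptophan repeats and join it to the deadenylases. Each of their genes has 1 very long coding exon in the first part of the transcript. In all 3 genes this exon carried shared intervals. Tnrc6c exon 5 (2601 nt, 45.6% of the CDS) was covered in full by an interval at chr11:117720950-117723600, with 6.20 in replicate 1 and 3.50 in replicate 2. Tnrc6b exon 8 (2340 nt, 43.1% of the CDS) was covered to 84.8% by an interval at chr15:80879109-80881092, with 4.73 in replicate 1 and 4.35 in replicate 2. This was the interval of at least 4 in both. Tnrc6a exon 6 (2583 nt, 45.4% of the CDS) was covered to 79.9% by a pair of intervals, the larger at chr7:123170476-123172096 with 4.58 in replicate 1 and 2.63 in replicate 2, the smaller with 4.10 and 2.30. The lincRNA gene Gm45846 overlaps the start of the smaller one.

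The exons held 21 GGAC in Tnrc6c (6 of them GGACT), 17 in Tnrc6b (5 GGACT) and 10 in Tnrc6a (2 GGACT), that is 8.07, 7.26 and 3.87 GGAC per kb. In each gene this was denser than the rest of its CDS, at 6.77, 4.85 and 2.25 per kb. The order of the 3 GW182 exons by motif density was that of their enrichment in replicate 1, but not in replicate 2, where Tnrc6b was highest. Windows of 150 nt with the most GGAC are shown for the 3 paralogs, plus strand, with each GGAC in capitals (Tnrc6c chr11:117722774-117722923, Tnrc6b chr15:80879216-80879365, Tnrc6a chr7:123170967-123171116). They held 4, 3 and 2 GGAC.
Tnrc6c exon 5: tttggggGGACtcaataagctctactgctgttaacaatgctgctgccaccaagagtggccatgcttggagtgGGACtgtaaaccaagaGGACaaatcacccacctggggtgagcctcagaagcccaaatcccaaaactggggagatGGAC
Tnrc6b exon 8: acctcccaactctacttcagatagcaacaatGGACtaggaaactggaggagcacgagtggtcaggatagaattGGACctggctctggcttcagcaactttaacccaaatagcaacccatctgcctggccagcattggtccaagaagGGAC
Tnrc6a exon 6: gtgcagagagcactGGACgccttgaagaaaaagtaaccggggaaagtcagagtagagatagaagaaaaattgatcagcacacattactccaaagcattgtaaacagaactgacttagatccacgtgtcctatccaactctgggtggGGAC

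Exon length ran through the members as a whole. Of the 8 internal exons of at least 400 nt in the 10 genes, 7 had a shared interval, and in all protein-coding genes with a peak 67.0% of such exons did. Of the 194 shorter internal exons, 12 had one (6.19%), beside 5.81% in all these genes. No Argonaute has an internal exon of 400 nt, and the longest, in Ago4, is 316 nt. The same split was seen for single sites. Of 18 coding GGACT in member exons of at least 400 nt, 16 lay in a shared interval and the other 2 in a peak of a single replicate. Of 23 in shorter exons, 0 lay in a shared interval, 5 in a peak of a single replicate and 18 in none. Over all genes with a shared interval the shares were 63.0% and 7.57%. For both lengths together 39.0% of the members' coding GGACT lay in a shared interval, beside 28.7%. A long exon offers more bases to a peak than a short one, and the overlaps were not scaled for this.

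**Figure D5:**
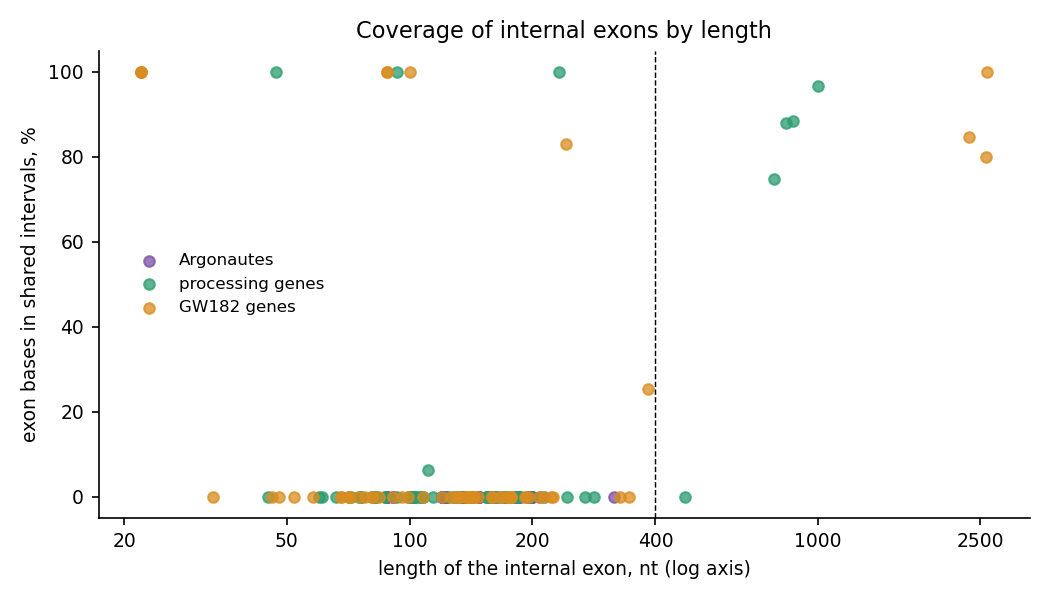
Percent of bases of each internal exon of the members that lay in shared intervals, against exon length in nt (log axis), coloured by family. To the right of the dashed line at 400 nt, 7 of 8 exons are covered for 74.9% or more, and all 67 Argonaute points lie on the zero line left of it.

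Upstream of the long exon, the GW182 genes had shared intervals over a pair of very short coding exons, though not over these alone. Tnrc6a exon 5 (384 nt) had one, at 2.33 in replicate 1 and 1.96 in replicate 2, and Tnrc6c exon 1 had one, at 3.32 and 1.70. Peaks of a single replicate lay there too, such as 4.27 over Tnrc6b exon 4 in replicate 1 and 2.34 over Tnrc6c exon 4 in replicate 2. The short pairs were as follows. In Tnrc6a, exon 3 (88 nt) lay under an interval of 3.07 in replicate 1 and 1.49 in replicate 2, and exon 4 (22 nt) under one of 4.14 and 1.67. In Tnrc6b, exon 5 (88 nt) had 5.06 and 1.71, and exon 6 (22 nt) had 5.21 and 1.77. In Tnrc6c, exon 2 (100 nt, holding the start codon) had 3.26 and 1.87, and exon 3 (22 nt) had 3.59 and 2.34. All 6 intervals of these pairs were well above 2 in replicate 1 (3.07 to 5.21) and most were below 2 in replicate 2 (1.49 to 2.34). The Tnrc6b pair had values in replicate 1 above that of its long exon.

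None of these 6 exons held a GGAC, although each held 1 to 3 copies of the wider m6A consensus DRACH, in which D stands for any base but C, R for a purine and H for any base but G. The intervals were 200 to 382 nt long, so that 178 to 356 bases of each lay outside the exon, in the introns. With these intron bases counted, the interval over exon 3 of Tnrc6c held 2 GGAC and the other 5 held 0. Over the 22-nt exons of Tnrc6a and Tnrc6b the replicate 2 peaks were 200 nt, the shortest length in the lists. All 6 exons were rich in purines, at 63.6% to 86.4% A or G. Internal exons of up to 100 nt with a shared interval had a median of 64.4% purines over all genes with a shared interval (quartiles 58.6% and 70.1%), and those without one had 53.75% (quartiles 48.5% and 58.9%). In the members the medians were 70.5% in 8 such exons, the remaining pair of which are in Drosha, and 55.3% in the 42 others of members with an interval. GGAC was present in 0 of those 8 member exons and in 31.2% of such exons over all genes. Among exons of that size without a shared interval, it was present in 13 of the 42 in members (31.0%) and in 29.2% over all genes. The 8 exons include the 3 of 22 nt and a Drosha exon of 47 nt, which have little room for a motif. The exons compared were not matched in length. The 3 exons of 22 nt are related in sequence, with 19 identical bases between Tnrc6a and Tnrc6b, 18 between Tnrc6a and Tnrc6c and 17 between Tnrc6b and Tnrc6c. They are shown with the 88-nt exons before them, in lower case because no GGAC occurs in them (plus strand, Tnrc6a chr7:123143750-123143837 and chr7:123152164-123152185, Tnrc6b chr15:80858681-80858768 and chr15:80864385-80864406, Tnrc6c chr11:117702379-117702400).
Tnrc6a exon 3: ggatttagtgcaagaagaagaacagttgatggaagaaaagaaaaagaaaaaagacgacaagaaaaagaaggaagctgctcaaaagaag
Tnrc6b exon 5: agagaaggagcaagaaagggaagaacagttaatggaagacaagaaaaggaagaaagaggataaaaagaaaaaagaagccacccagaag
Tnrc6a exon 4: gccactgaacaaaaaatcaaag
Tnrc6b exon 6: gtcacggaacaaaaaaccaaag
Tnrc6c exon 3: gctgctgatcaaaaaaccaaag

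At the 3′ end the GW182 paralogs differed in their shared intervals. Tnrc6c carried its strongest interval in the 3′ UTR, at chr11:117761932-117762539 (midpoint 1384 nt after the stop codon), with 6.59 in replicate 1, the highest of all member peaks, and 3.94 in replicate 2. It held 3 GGACT, one of which lies 1554 nt after the stop codon (chr11:117762391-117762419, plus strand). A further Tnrc6c interval ran across the stop codon, at 4.59 and 2.42. In Tnrc6b, an interval of 3.01 and 1.73 lay across the stop codon, and 128 nt of the 11609-nt 3′ UTR were covered. Replicate 2 alone also had peaks of 2.41 and 2.50 in the 3′ UTR of Tnrc6b. The microRNA gene Mir5113, 10563 nt down that 3′ UTR, lay in no shared interval. Tnrc6a had 1 shared interval in the 3′ UTR, at 2.93 and 2.14. Across its stop codon lay a peak of replicate 2 alone, at 1.69, so no interval there was shared.
Tnrc6c 3′ UTR site: tcgcgcgtgcgcGGACTctgtggactgtc

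Placed by their midpoints, 19 of the 30 shared intervals that fell on a representative transcript were in the CDS (63.3%), 8 in the 3′ UTR (26.7%) and 3 in the 5′ UTR (10.0%). Over all protein-coding genes the shares were 61.2%, 29.3% and 9.47%. A coding midpoint was present in 6 of the 9 members with a shared interval, beside 69.7% of genes, and the other 3 were the Argonautes. No farther than 200 nt from the end of the stop codon were 8 of the 30 (26.7%), beside 23.2%. As a set the members were thus close to all genes in where their peaks lay, and the families within it were not alike. In the CDS were 0 of 4 Argonaute, 8 of 11 processing and 11 of 15 GW182 midpoints. GGACT was present in 11 of the 32 intervals (34.4%, and 37.9% over all genes). GGAC was present in 18 (56.25%, beside 16259 of 21678 intervals over all genes), with 9 of the 14 intervals that lacked it in GW182 genes. These counts are over the spliced exon bases of an interval alone.

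The rest of the pathway was read from a list of 37 further genes, of which 25 had a shared interval (45.6% of all protein-coding genes, and 71.2% of those in the exon length range of the 10 members, did). The counts of the groups below are small, and are to be read beside the same shares. The exporter of precursors, Xpo5, had 1 shared interval. Among 6 further processing factors, 5 had one. Ddx17, an RNA helicase of the Drosha complex, had 5, none above 2.59 in replicate 1 or 2.42 in replicate 2, and Prkra, a Dicer partner, had none. Of 5 genes of precursor control, 2 had a shared interval, the terminal uridylyltransferases Tut4 (2) and Tut7 (4). Lin28a, which blocks the let-7 precursor, had no peak in either replicate.

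Downstream of the Argonautes, 4 of 6 effector genes, 9 of 12 deadenylation genes and 4 of 6 decapping genes had a shared interval. Cnot3, a subunit of the CCR4-NOT deadenylase, had the most of the 37, with 8 peaks in replicate 1, 6 in replicate 2 and 6 shared, but no value above 2.60. Ddx6, a helicase that links CCR4-NOT to decapping, had 5, up to 4.66 in replicate 1 and 3.75 in replicate 2. Zswim8, part of the ubiquitin ligase that removes Argonaute bound to highly complementary targets, also had 5, up to 4.07 and 2.36. No peak in either replicate was seen for 5 of the 37, the export factor Ran, Prkra, Lin28a, Mov10 and Trim71. A further 7 had peaks in a list but none shared, among them the exonuclease Xrn1 with 3 peaks in each replicate, which did not overlap.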

How the data were processed

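m6A-seq of mouse whole brain was analysed from the authors' peak lists. By the methods of the study and the submitters' notes, reads were aligned to mm10 (TopHat2 2.0.9 in the notes) and peaks were called with MACS2 for each IP replicate against its own input, with no pooling. The deposited value of a peak is a linear ratio, the fold enrichment of IP over input. The lists carry no depth, strand, p-value or summit, so counting errors cannot be given. Input samples have no file used here.

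Peaks were read with both ends counted and placed on GENCODE M21 exons and the GRCm38.p6 sequence (Python 3.11.15, pandas 2.3.3, pyfaidx 0.9.0.4). A peak was counted on a gene when at least 1 base was exonic in any transcript. A shared interval is an overlap of at least 1 bp between replicates. The representative transcript is the one with the longest complete CDS. GGAC and GGACT were searched on the spliced transcript strand, and each GGACT also counts as GGAC. The interval code was checked on simulated peaks and against bedtools 2.31.1.

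Members and gene lists were chosen with earlier results of these data known. Every member is named with its peak numbers and its interval with the highest lower fold enrichment, as are any with at least 4 in both replicates. Of the other 37 genes those with most shared intervals (with ties, 1 gene not reported here) and 5 with none are named, and other named genes were picked after their values were seen. Alternatives were stricter overlap, fold enrichment of at least 2, other exon models, merging, other windows and motifs, and each replicate alone.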

Additional observations from a re-analysis of the deposited data

How the results depend on the processing

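Of the alternative values computed for 11 results, none changed direction, since all are counts, shares and levels without a test. No paired analysis was possible because the input samples have no peak lists here, each IP list already has its own input as denominator, and no test was run. Dropping peaks under 2-fold from either list left 17 of the 32 shared intervals, lowered the shared part of replicate 1 peaks to 39.5% and raised that of replicate 2 peaks to 73.9%. It also moved the share near the stop codon to 23.5% and the share with GGACT to 52.9%. An overlap of 50% of both peaks gave shared parts of 57.7% and 62.5%, and midpoints in exons gave 65.3% in replicate 1. The mean fold enrichment weighted by peak length was 3.78 in replicate 1. Near the stop codon lay 16.7% of the intervals with a window of 100 nt. When any base counted the share was 25%. That share is of all 32 intervals, where the main share of 26.7% is of the 30 placed by midpoint. GGAC was present in 56.25% of the intervals, DRACH in 96.9%, and GGACT in 6.25% when limited to the central 100 nt. With a single replicate in place of the shared intervals, the number of peaks was 48 to 52, the median per kb 0.271 to 0.450, the coding share 60.9% to 70.8%, the share near the stop codon 19.6% to 20.8% and the share with GGACT 29.4% to 35.4%. Members with a peak numbered 9 to 10 with a single replicate. Members with a shared interval numbered 8 without the peaks under 2-fold. Every other alternative kept its count within 1.5 times, or its share within the spread of the replicates. The number of reads behind a peak is unknown, so the precision of each fold enrichment can be judged only from the 2 replicates.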
